A study of Rattus norvegicus with 60 samples.

Results

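The striatum was compared with 4 other regions of the rat brain by the gene expression of its 12 arrays. They are the arrays titled striatum among the 60 of the study, and the other arrays came from accumbens, frontal cortex, hippocampus and amygdala. The 12 animals were adult rats, 6 of the congenic line NP.P and 6 of the line NP, and each animal gave all 5 regions. NP rats were bred as alcohol-non-preferring, and a congenic line carries a segment of another line's genome on a shared background, so both lines share the NP background. No animal had a treatment beyond handling, and the RNA of each rat was labelled separately. The striatum, like the frontal cortex, kept 6 arrays of each line, accumbens and amygdala kept 5 congenic and 5 NP arrays, and hippocampus kept 5 congenic and 4 NP arrays. The labels do not state where the regions were cut from each other. Both lines were analysed jointly, with the animal as a block, so regions were compared within animals. Not every animal kept an array of each region.

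The striatum is the main input nucleus of the basal ganglia. Most of its neurons are GABAergic medium spiny neurons, which fall into a direct pathway, marked by the dopamine receptor Drd1 with the peptides substance P and dynorphin, and an indirect pathway, marked by the receptor Drd2 with enkephalin and the adenosine receptor Adora2a. Drd1 raises cyclic AMP and Drd2 lowers it, and the signal reaches Ppp1r1b (DARPP-32), an inhibitor of protein phosphatase 1. The accumbens is the ventral extension of the striatum and holds the same neuron types. It is given separately below.

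Of the 60 arrays, 7 were left out because in earlier work on these values they stood apart from their labelled region, so the choice rests on expression. They were the accumbens arrays of congenic animal 9 and NP animal 8, the amygdala arrays of congenic animal 3 and NP animal 6, and the hippocampus arrays of congenic animal 3 and of NP animals 8 and 11. That left 53 arrays, 12 of striatum against 41 of the other regions (accumbens 10, frontal cortex 12, hippocampus 9 and amygdala 10). The mean log2 signal of Drd1, Drd2 and Ppp1r1b was 12.04 in the left-out amygdala array of NP animal 6 and 11.95 in the hippocampus array of NP animal 8, against 12.06 in the lowest striatum array and 11.25 to 12.04 in the accumbens arrays that were kept. In the left-out accumbens array of NP animal 8 it was 8.52, within the 8.44 to 8.82 of the kept hippocampus arrays. With all 60 arrays kept, 117 probe sets were at least 2-fold higher and 58 lower, against 115 and 62 without the 7. Other counts moved more. Calls at any size (adjusted p below 0.05) were 12960 with all 60 arrays and 14554 without the 7. The 2-fold counts against hippocampus were 257 higher and 218 lower, against 308 and 276 without the 7. For amygdala they were 127 and 160, against 140 and 200. Of the 177 genes named by rule, 11 lost their call with all 60 arrays. No array of the striatum was left out.

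Some control probe sets also set the striatum arrays apart. The poly-A spike thr read 8.36, 8.55 and 8.69 in striatum (lowest, median and highest log2 signal), against 8.90, 9.56 and 10.17 in the other regions. The spike dap differed by -0.47 and the spike phe by -0.69 on the log2 scale, striatum minus the mean of the other 4 regions. The hybridization control cre ran from 14.85 to 15.07 in striatum and from 14.51 to 14.82 elsewhere, with no overlap. The hybridization controls bioB (8.71 to 9.24, against 8.68 to 10.22) and bioD (13.02 to 13.28, against 12.59 to 13.46) did overlap. They differed by -0.28 and 0.16 from the mean of the other 4 regions. The 3′ minus 5′ difference of GAPDH, a measure of RNA quality, ran from 0.05 to 0.26 in striatum and from -0.10 to 0.15 in the other arrays. For hexokinase the order was the reverse, with a median of 1.32 in striatum and of 1.42 to 1.68 in the other regions. For beta-actin the medians were 1.10 in striatum and 0.85 to 1.07 in the others. The labels name no labelling or hybridization batch, so the region and any such batch of the striatum arrays cannot be told apart, and the part of these shifts in the results was not tested.

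The markers Drd1, Drd2 and Ppp1r1b were all high in the striatum arrays. Drd2 read 10.88, 11.54 and 11.93 in striatum (lowest, median, highest), against medians of 10.45 in accumbens, 9.19 in amygdala, 7.61 in frontal cortex and 7.41 in hippocampus. Every striatum array lay above all 41 others, the highest of which was 10.71. Here and below, the 7 arrays left out on their expression are not among the 41, and overlap with them was not counted. Ppp1r1b read 13.30, 13.80 and 14.18 in striatum, against 10.07, 10.76 and 12.76 over the other arrays, again without overlap. Drd1 read 11.85, 12.51 and 12.97 in striatum, but 12.54 was its median in accumbens, so it separates both from the other 3 regions and not from each other. Its medians were 10.83 in amygdala, 8.40 in frontal cortex and 8.26 in hippocampus.

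Differences between striatum and the mean of the 4 other regions were tested in limma. The p-values were adjusted by Benjamini-Hochberg over the 18625 probe sets above the signal filter, and calls needed an adjusted p below 0.05. At any size 5549 probe sets (29.8%) were higher in striatum and 9005 (48.3%) lower, a split that quantile normalization moved to 6617 higher and 7608 lower. Because 78.1% of probe sets were called, a bare call says little here, and size and order over the arrays carry the description. At least 2-fold higher were 115 probe sets (0.617%), and at least 2-fold lower were 62 (0.333%). All 12 animals showed the direction in 114 of the 115 and in 60 of the 62. These probe sets were picked for their size in the same animals, so this agreement is a description and no further support. All 12 striatum arrays lay above the 41 others in 310 probe sets (1.66%) and below them in 653 (3.51%). On 1 probe set per gene, 63 of 10373 genes (0.607%) were at least 2-fold higher and 37 (0.357%) at least 2-fold lower, and the median over all genes was -0.09. At any size 26.6% of genes were higher and 53.1% lower, the shares against which the counts of the gene lists stand. In bulk tissue, fewer cells of a type and less RNA per cell cannot be told apart.

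**Figure D1:**
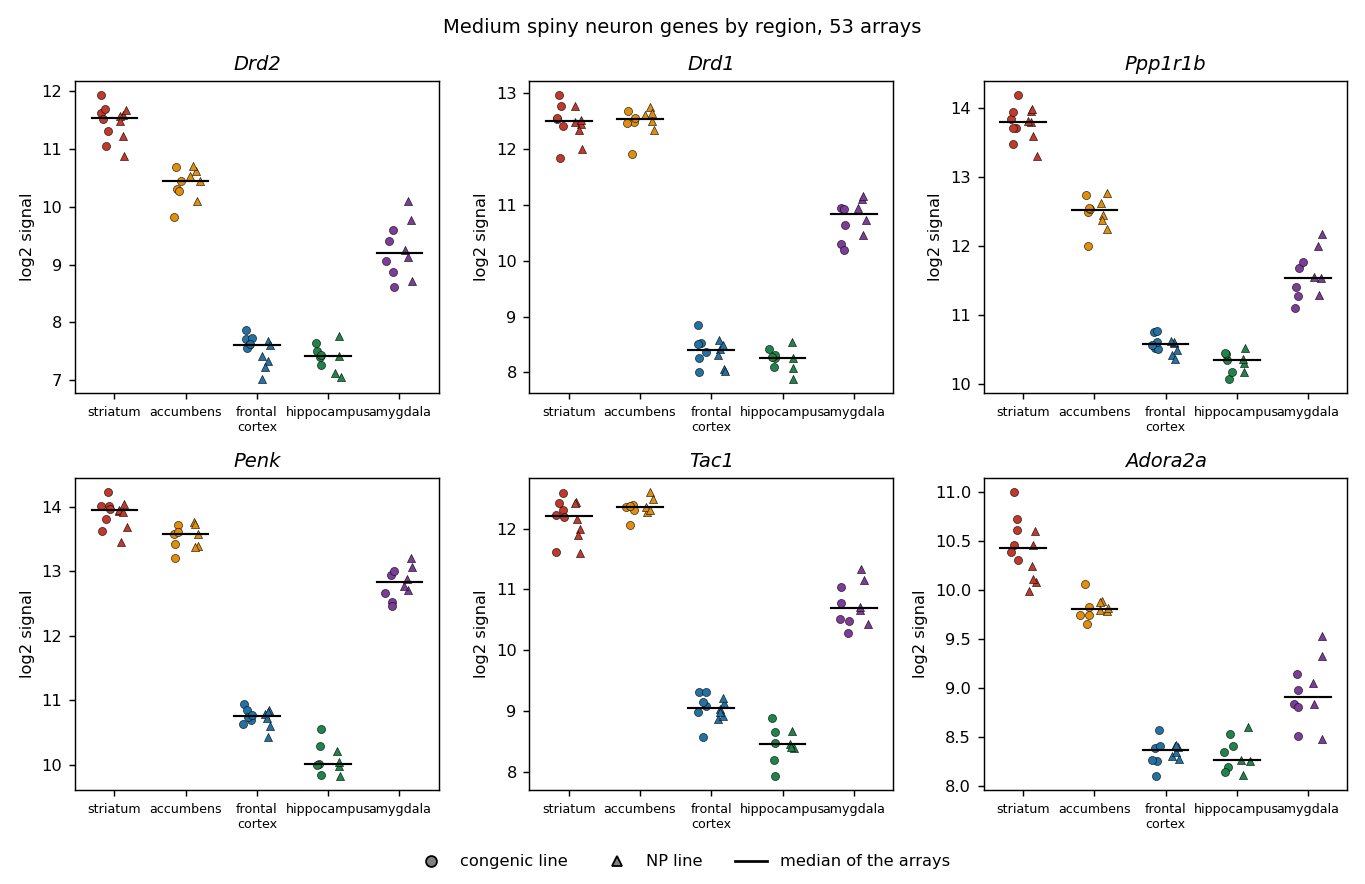
Log2 signal (y axis) of 6 genes on the 53 arrays, by region (x axis). Circles are congenic and triangles NP animals, and lines are medians. Drd2 and Ppp1r1b in striatum lie above every other array, while Drd1 and Tac1 reach the same level in accumbens.

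Genes of the medium spiny neuron led the higher side. Of the 27 tested members of the list for both pathways, all 27 were called higher, 17 of them at least 2-fold, with a median log2 difference of 1.21. The list was chosen with earlier results of these data known. The mean signal of the list ran from 11.68 to 12.31 over the striatum arrays. It ran from 11.23 to 11.59 in accumbens, 10.55 to 11.16 in amygdala, 10.30 to 10.52 in frontal cortex and 10.22 to 10.28 in hippocampus. The order of the regions was the same as for Drd2, and striatum overlapped none of the others.

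Drd2 was 7.02-fold higher (log2 2.81 ± 0.10 SE, adjusted p = 5.65e-26), Ppp1r1b 5.78-fold (2.53 ± 0.07, adjusted p = 2.82e-29) and Drd1 5.70-fold (2.51 ± 0.09, adjusted p = 1.23e-25). Scn4b, the sodium channel beta4 subunit, read 12.89, 13.29 and 13.52 in striatum, against 9.65, 11.59 and 12.39 in the other regions, and was 4.49-fold higher. Dach1, a nuclear cofactor outside the lists, read 9.43, 10.32 and 10.72 in striatum, with medians of 9.29 in amygdala, 8.99 in accumbens, 6.62 in hippocampus and 6.61 in frontal cortex, and was 5.31-fold higher (log2 2.41 ± 0.09). Syndig1l, a transmembrane protein first found in the caudate and putamen, read 10.91, 11.46 and 11.71 in striatum, against 7.80, 8.48 and 10.83, and was 4.54-fold higher. Scn4b and Syndig1l kept all striatum arrays above the rest. Rasd2 (Rhes), a small GTPase of striatal neurons, read 13.27, 13.61 and 13.95 in striatum, against 10.73, 11.95 and 12.67, a 3.54-fold difference.

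The direct pathway list was less uniform. Of 10 tested members, 6 were higher, 3 lower and 1 not called. Tac1, the precursor of substance P, read 11.60, 12.20 and 12.58 in striatum and 12.35 at its median in accumbens, with 10.69 in amygdala, 9.06 in frontal cortex and 8.47 in hippocampus. It was 3.96-fold higher than the mean of the 4 (log2 1.99 ± 0.09, adjusted p = 2.01e-23), while against accumbens it was not called (-0.23, adjusted p = 0.075). Slc35d3, a transporter-like protein of the nucleotide sugar family, followed the same order, with medians of 9.55 in striatum, 9.69 in accumbens and 7.22 in hippocampus. The muscarinic receptor Chrm4 read 9.27, 9.39 and 9.60 in striatum, against 7.85, 8.45 and 8.96 in the others, and stood 0.65 above accumbens. Pdyn, the dynorphin precursor, was 0.65 above the mean of the 4 but 0.50 below accumbens. The members that were lower, Sfxn1 (-0.36), Eya1 (-0.20) and Lingo2 (-0.13), moved little.

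Indirect pathway genes were higher in 4 of 5 tested members, all 4 at least 2-fold, and Ptprm was not called (log2 0.03, adjusted p = 0.587), although its second probe set was (0.27). Penk, the enkephalin precursor, read 13.45, 13.95 and 14.23 in striatum, against medians of 13.58 in accumbens, 12.83 in amygdala, 10.77 in frontal cortex and 10.02 in hippocampus, and was 4.25-fold above the mean of the 4. Gpr6, an orphan receptor that raises cyclic AMP, read 9.83, 10.45 and 10.83 in striatum, against 7.44, 8.44 and 10.27 elsewhere (log2 1.69 ± 0.08). Adora2a, which opposes Drd2 in the same neurons, read 9.99, 10.43 and 11.00 in striatum, against 8.10, 8.53 and 10.06 elsewhere. Its 2 probe sets gave log2 differences of 1.55 and 2.89, so the size depends on the probes.

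The 250 bases upstream of the RefSeq start (assembly GRCr8) are shown for 2 genes of each pathway, because cyclic AMP acts in part through CREB at the element TGACGTCA or its shorter form TGACG, and because many brain promoters without a TATA box carry GC boxes. Sequences run 5′ to 3′ on the gene's strand, with TGACGTCA, TGACG and GGGCGG on either strand in capitals. TGACGTCA is its own reverse complement and contains TGACG on both strands. Positions are counted back from the base before the start, as -1. Ppp1r1b, Penk, Adora2a and Syndig1l are named only.
Drd2, chr8:58605153-58605402, plus strand: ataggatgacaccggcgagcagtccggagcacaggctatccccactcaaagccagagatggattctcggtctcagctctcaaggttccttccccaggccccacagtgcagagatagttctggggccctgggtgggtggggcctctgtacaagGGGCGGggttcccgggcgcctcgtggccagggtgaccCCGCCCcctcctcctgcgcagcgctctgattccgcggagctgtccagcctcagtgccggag
Gpr6, chr20:46075252-46075501, minus strand: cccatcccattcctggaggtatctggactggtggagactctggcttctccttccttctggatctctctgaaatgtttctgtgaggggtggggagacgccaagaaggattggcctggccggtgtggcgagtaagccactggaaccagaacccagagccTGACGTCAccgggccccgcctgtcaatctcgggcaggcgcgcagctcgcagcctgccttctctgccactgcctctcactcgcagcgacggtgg
Drd1, chr17:10546354-10546603, plus strand: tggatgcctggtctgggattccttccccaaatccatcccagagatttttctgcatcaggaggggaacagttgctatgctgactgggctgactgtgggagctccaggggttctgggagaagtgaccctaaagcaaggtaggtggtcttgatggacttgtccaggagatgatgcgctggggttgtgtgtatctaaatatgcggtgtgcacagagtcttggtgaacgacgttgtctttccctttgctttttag
Tac1, chr4:36645333-36645582, plus strand: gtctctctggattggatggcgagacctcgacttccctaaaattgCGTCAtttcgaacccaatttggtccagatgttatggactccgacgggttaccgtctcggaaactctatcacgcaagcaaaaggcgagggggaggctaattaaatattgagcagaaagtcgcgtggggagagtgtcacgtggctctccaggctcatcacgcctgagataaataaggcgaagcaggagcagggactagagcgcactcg
Drd2 holds 2 GC boxes, from -98 and, on the opposite strand, from -61. Gpr6 holds the full TGACGTCA from -93, and Tac1 holds TGACG on the opposite strand from -206. The window of Drd1 holds none of these motifs. Whether the RefSeq start of Drd1 is where its transcription starts was not checked, so its window may not be its promoter. Matches are descriptions and not shown to be bound.

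Signalling below the receptors was higher in part. Of 40 tested genes of cyclic AMP and dopamine signalling, 23 were higher, 8 lower and 9 not called, with a median of 0.26 against -0.09 over all genes. Pde10a, the phosphodiesterase of medium spiny neurons, read 13.28, 13.70 and 14.03 in striatum, against 10.60, 11.49 and 12.77 in the other regions, 4.11-fold higher and without overlap. Rgs9, which shortens signalling by Gi-coupled receptors, read 11.49, 11.92 and 12.13 in striatum and 11.25 at its median in accumbens, and 8.68 to 11.60 over all others. Gng7, the G protein gamma subunit paired with the olfactory-type alpha subunit, read 11.63, 12.24 and 12.66 in striatum, against 9.25, 10.40 and 11.83.

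The cyclases of the list went both ways. Adcy5, the main adenylyl cyclase of the striatum, was 2.84-fold higher (log2 1.51 ± 0.06), 0.72 above accumbens and 2.10 above hippocampus. Adcy8, a calcium-stimulated cyclase, read 7.07, 7.33 and 7.69 in striatum, against 7.74, 8.22 and 9.78 in the other regions, so all 12 arrays were below the rest (log2 -1.18 ± 0.07, adjusted p = 1.6e-18). Adcy2 (-0.30) and the phosphodiesterase Pde1a (-0.48) were also lower. Gnal, the alpha subunit that links Drd1 to Adcy5, was 2.31-fold above the mean of the 4 but level with accumbens (log2 -0.01).

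Of 14 tested RGS genes, which encode brakes on G protein signalling, 6 were higher and 6 lower, and their median was -0.05. Rgs9 was the single member past 2-fold. Rgs8 (0.71), Rgs12 (0.59) and Rgs4 (0.53) were the next higher, and Rgs16 (-0.46), Rgs10 (-0.45) and Rgs7 (-0.27) were lower.

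Transcription factors of striatal neurons were higher in 12 of 14 tested genes, with Dlx1 lower and Zfp521 not called (median 0.60). The mean signal of the list ran from 9.78 to 10.33 in striatum and 10.07 to 10.20 in accumbens, so it did not separate striatum from accumbens. It ran from 9.47 to 9.68 in amygdala, 8.93 to 9.01 in frontal cortex and 8.76 to 8.95 in hippocampus. Foxp1, a forkhead factor, read 11.66, 12.14 and 12.32 in striatum, against 9.83, 10.90 and 11.57 elsewhere, 2.64-fold higher without overlap, and its 4 probe sets were all called higher. The retinoid receptors Rxrg (log2 1.62 ± 0.07) and Rarb (1.52 ± 0.06) came first in this list. Rxrg read 10.42, 10.93 and 11.26 in striatum, against 7.40, 9.49 and 10.34, while Rarb was 0.28 lower in striatum than in accumbens (medians 11.01 and 11.24). Foxp2 was also lower than in accumbens, with medians of 9.44 in striatum, 10.07 in accumbens and 5.85 in hippocampus.

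Of the 15 tested genes of the retinoid list, Rxrg and Rarb included, 9 were higher, 5 lower and 1 not called. Aldh1a1, a retinaldehyde dehydrogenase, read 8.70, 8.88 and 9.14 in striatum, against 9.40, 9.90 and 10.29 elsewhere, so every striatum array was below the rest. Crabp2 (-0.86) and Aldh1a2 (-0.46), genes that the meninges also express, were lower as well.

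In the lists of potassium channels and of glutamate and GABA genes, 1 gene (Grm4) passed 2-fold. Of 29 potassium channel genes 18 were higher and 7 lower, none 2-fold, led by the background channel Kcnk2 (log2 0.96 ± 0.05, but 0.28 on its second probe set) and the subunit Kcnab1 (0.88 ± 0.06). Kcnh4, an Elk-type channel, had no overlap, at 8.44, 8.61 and 8.80 in striatum, against 7.34, 7.75 and 8.29. Among 18 glutamate receptors 10 were higher and 3 lower. Grm4, a presynaptic metabotropic receptor, was 2.30-fold higher, at 8.51, 8.90 and 9.13 in striatum, against 6.96, 7.66 and 8.49. The NMDA receptor subunit Grin1 was 0.52 higher, again with every striatum array above the rest, but its second probe set was not called (0.04). Of 14 GABA genes 6 were higher and 5 lower, with the vesicular transporter Slc32a1 at 0.80 and the receptor subunit Gabrg1 at -0.60. The synthesis enzymes Gad1 (0.07) and Gad2 (-0.03, adjusted p = 0.681) were close to the mean of the other regions. For Gad1 that mean hides differences of -0.43 against accumbens, 0.32 against frontal cortex and 0.38 against hippocampus. Of 25 calcium-handling genes 13 were higher and 5 lower, led by Pcp4 (0.82) and Hpca (0.75), which bind calmodulin and calcium.

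Modulatory receptors were higher in 7 of 10 tested opioid, cannabinoid, adenosine and muscarinic genes. After Adora2a and Chrm4 came the kappa opioid receptor Oprk1 (log2 0.98 ± 0.08), which was 0.25 lower than in accumbens. Of 6 serotonin receptors, Htr1d (0.98) and Htr2a (0.29) were higher and Htr7 (-0.48) and Htr2c (-0.21, adjusted p = 0.0343) lower. The second probe set of Htr2c was not called (0.01), and its direction turns (0.080) when accumbens is left out of the mean. The opioid receptors Oprm1 and Oprd1 were below the signal filter.

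Of 9 GABA interneuron genes 4 were higher and 4 lower, between -0.57 (Calb2) and 0.30 (Npy). Chat, the acetylcholine-synthesizing enzyme, was below the filter, and of the 3 tested cholinergic genes Ecel1 (0.51) and Slc18a3 (0.22) were higher. Against accumbens they were at -0.70 and -0.29. The mean signal of the 3 cholinergic genes ran from 7.87 to 8.58 in striatum, 8.80 to 9.36 in accumbens, 8.21 to 9.28 in amygdala, 7.33 to 7.52 in hippocampus and 6.76 to 7.06 in frontal cortex. Striatum was therefore wholly below accumbens and wholly above hippocampus and frontal cortex, which the mean of the 4 does not show.

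**Figure D2:**
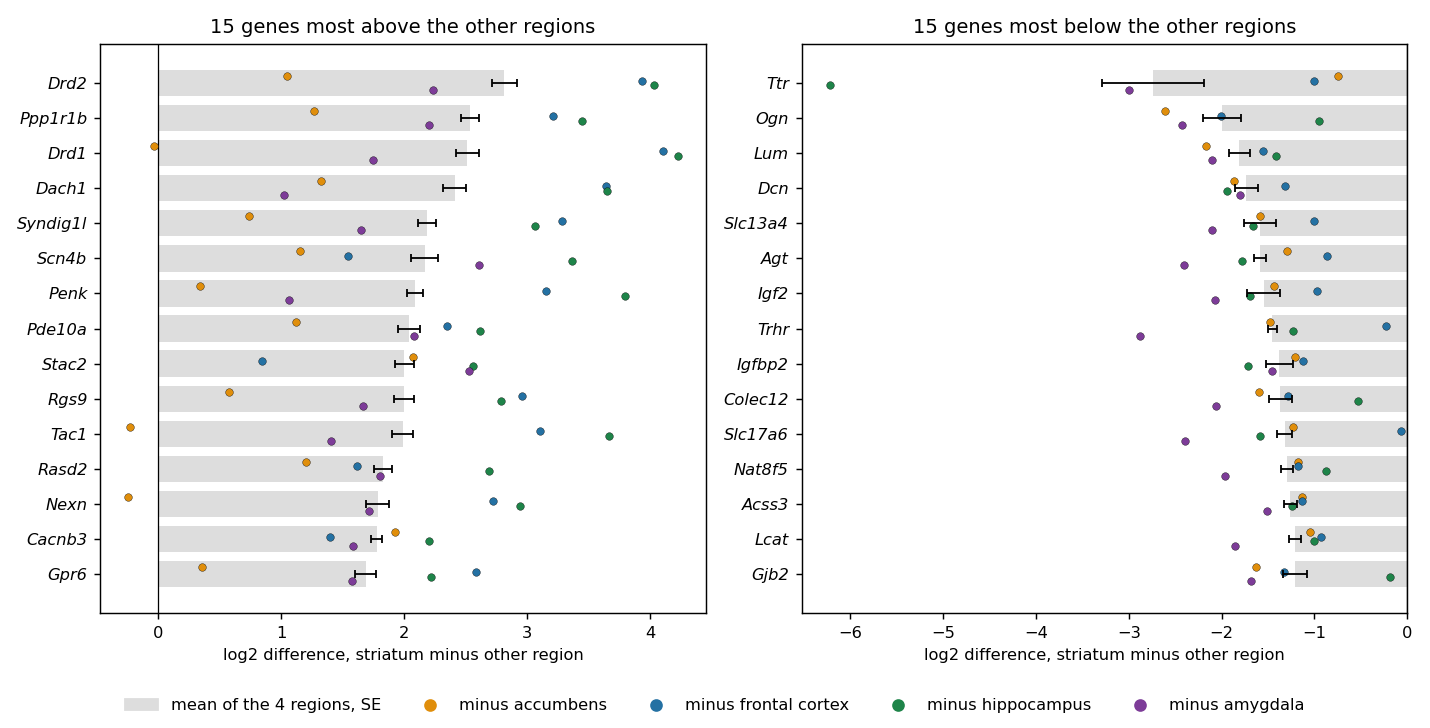
The 15 named genes with the largest differences in each direction. Bars with error bars are the log2 difference between striatum and the mean of the 4 other regions with its SE (x axis), and dots the differences from each region. Drd1, Tac1 and Nexn lie at or below 0 against accumbens, Cacnb3 is above all 4 regions, and the dots of Ttr run from -6.21 (hippocampus) to -0.75 (accumbens).

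Against accumbens alone, 153 probe sets (0.821%) were at least 2-fold higher in striatum and 94 (0.505%) at least 2-fold lower. At any size 29.9% of probe sets were called higher and 33.8% lower than in accumbens. The 2-fold counts were 182 higher (0.977%) and 98 lower (0.526%) against frontal cortex, 308 (1.65%) and 276 (1.48%) against hippocampus, and 140 (0.752%) and 200 (1.07%) against amygdala. With quantile normalization the counts against amygdala were 175 higher and 174 lower. Called at any size were 29% higher and 50% lower against frontal cortex, 28.7% and 47.6% against hippocampus, and 28.3% and 48.7% against amygdala. Of the 63 genes at least 2-fold above the mean of the 4, 52 were called above accumbens, 28 of them at least 2-fold, 3 were called below it and 8 were not called. The 3 below were Rarb, Foxp2 and Pcp4l1, a relative of Pcp4 (-1.06 against accumbens). Median differences of the 63 genes were 0.84 from accumbens, 1.28 from amygdala, 1.46 from frontal cortex and 1.73 from hippocampus. The genes were chosen on the mean of these 4, so the medians are a description.

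The 4 genes highest against accumbens, Stac2, Cacnb3, Fezf2 and Ephb6, were not members of the medium spiny lists. Stac2, an adaptor of voltage-gated calcium channels, read 8.80, 9.36 and 9.68 in striatum, against medians of 7.25 in accumbens, 8.50 in frontal cortex, 6.81 in hippocampus and 6.80 in amygdala, 2.07 above accumbens. Cacnb3, the calcium channel beta3 subunit, read 11.60, 11.90 and 12.08 in striatum, against 9.56, 10.13 and 10.64 over all other arrays, and was at least 1.40 above each region. Its adjusted p of 2.06e-31 against the mean of the 4 came with a difference of 1.78 ± 0.05. Fezf2, a transcription factor of deep-layer cortical neurons, was 1.86 above accumbens but 0.66 below frontal cortex. Ephb6, an ephrin receptor without kinase activity, was 1.77 above accumbens and 0.38 below frontal cortex.

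On the lower side against accumbens stood the peptide precursor Cartpt, at 9.08, 9.31 and 9.71 in striatum, against a median of 12.01 in accumbens (log2 -2.68), 9.23 in amygdala, 8.97 in frontal cortex and 8.52 in hippocampus. Ogn (-2.61), Lum (-2.17) and Dcn (-1.87), which encode matrix proteoglycans, came next. The neurotensin gene Nts (-1.81) and the choline transporter Slc5a7 (-1.61) were lower than in accumbens too. Against the mean of the other 3 regions, Cartpt (0.38) and Nts (0.025) turned to positive values and Fezf2 (-0.17) to a negative one.

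**Figure D3:**
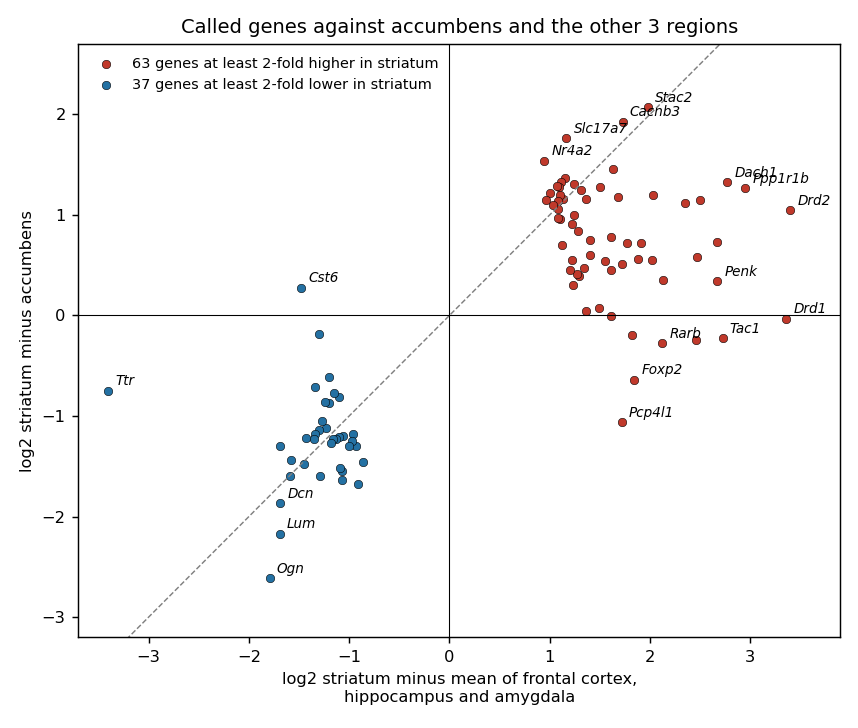
The 100 genes at least 2-fold different in striatum, by their log2 difference from the mean of frontal cortex, hippocampus and amygdala (x axis) and from accumbens (y axis). The dashed line marks equal differences. Drd1, Tac1, Rarb, Foxp2 and Pcp4l1 lie at or below 0 against accumbens, and Stac2, Cacnb3, Slc17a7 and Nr4a2 on or above the line.

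A further group differed by nearly the same amount from all 4 regions. In 13 of the 63 higher genes, and in 2 of the 37 lower, the 4 single-region differences lay within 0.5 of each other. The share over all genes was not counted. Among the 13 was the actin-bundling gene Fscn1, at 10.17, 10.43 and 10.57 in striatum, against 8.32, 8.98 and 9.45 elsewhere. Others, named after their values were seen, were the proton pump subunit Atp6v0a1 (log2 1.10 ± 0.04), the proteasome receptor Adrm1 (1.08 ± 0.04), the elongation factor Eef1a2 (1.13 ± 0.05), the synaptic scaffold gene Dlgap3 (1.13 ± 0.05) and Pfkl, a phosphofructokinase (1.21 ± 0.04). The differences of Dlgap3 ran from 0.85 (amygdala) to 1.35 (hippocampus), close to the limit of 0.5. On its second probe set they were 1.34 against accumbens and 0.89 against frontal cortex. Syt11, a synaptotagmin, is not among the 13, since its differences ran from 1.18 to 1.73. It read 10.06, 10.42 and 10.57 in striatum, against 8.31, 8.75 and 9.40. The spike thr was also lower than in accumbens (-0.67) and cre higher (0.27), and the part of such array-wide shifts in these even differences was not tested.

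Excitatory genes of the cortex were not low in striatum. Of 21 tested, 11 were higher, 7 lower and 3 not called, with a median of 0.14. Their mean signal ran from 10.53 to 10.78 in striatum. It was 10.64 to 10.84 in frontal cortex, 10.71 to 10.83 in hippocampus, 10.13 to 10.69 in amygdala and 9.75 to 10.07 in accumbens, so striatum lay wholly above accumbens. Slc17a7, the vesicular glutamate transporter VGLUT1 of cortical neurons, read 12.71, 13.14 and 13.46 in striatum, against 10.50, 11.98 and 12.67 elsewhere, 2.49-fold higher (log2 1.32 ± 0.11, adjusted p = 9.46e-14). It was 1.05 above frontal cortex, 0.91 above hippocampus, 1.54 above amygdala and 1.76 above accumbens, and its second probe set gave 1.38 against the mean. Tbr1 (0.96), a factor of deep-layer neurons, and Nr4a2 (1.09) were higher too, while Bhlhe22 (-0.98), Neurod1 (-0.86) and Lhx2 (-0.50) were lower. Against accumbens alone Fezf2, Nptx1 (1.18) and Neurod6 (0.99) were higher. Whether cortical tissue formed part of the striatum samples was not tested.

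Immediate early genes, which neuronal activity induces, were higher in 10 of 15 tested genes, with a median of 0.47. Arc read 9.78, 10.89 and 11.12 in striatum, against 8.75, 9.90 and 11.19 in the others (log2 0.89 ± 0.06), and Egr1 read 12.96, 13.12 and 13.27, against 11.75, 12.35 and 13.24 (0.75 ± 0.04). Both overlapped frontal cortex, where their medians were 10.52 and 13.05. Jun (-0.49) and Nr4a3 (-0.63) were lower, and 1 of the 3 probe sets of Jun was not called (-0.08).

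Of the 51 genes on the higher side with a RefSeq promoter, 14 hold TGACG in the 250 bases (27.5%), against 19% of all 27457 promoters of that table. The full TGACGTCA is in 4 of the 51 (7.84%), against 1.7% of all, and GGGCGG is in 29 (56.9%), against 32.4% of all. On the lower side 26 genes had a promoter, 3 with TGACG (11.5%), 0 with TGACGTCA and 11 with GGGCGG (42.3%). No test was made. The 27457 promoters include genes that were not tested here, while the called genes all passed the signal filter. The shares among tested genes alone were not counted, so these percentages are not a like comparison. The 4 genes are Gpr6, shown above, Fscn1, Vgf and Hs3st2, which was named after its values were seen.
Fscn1, chr12:16723735-16723984, minus strand: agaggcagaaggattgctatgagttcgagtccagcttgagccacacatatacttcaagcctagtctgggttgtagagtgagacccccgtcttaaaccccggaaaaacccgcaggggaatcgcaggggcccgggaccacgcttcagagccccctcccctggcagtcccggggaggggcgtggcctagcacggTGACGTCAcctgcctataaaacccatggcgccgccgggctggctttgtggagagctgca
Vgf, chr12:25277021-25277270, minus strand: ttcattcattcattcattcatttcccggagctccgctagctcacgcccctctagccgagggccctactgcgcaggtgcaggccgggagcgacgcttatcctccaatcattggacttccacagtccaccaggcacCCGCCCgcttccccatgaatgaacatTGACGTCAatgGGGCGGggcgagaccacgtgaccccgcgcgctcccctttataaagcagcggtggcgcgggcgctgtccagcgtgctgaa
Hs3st2, chr1:185387213-185387462, plus strand: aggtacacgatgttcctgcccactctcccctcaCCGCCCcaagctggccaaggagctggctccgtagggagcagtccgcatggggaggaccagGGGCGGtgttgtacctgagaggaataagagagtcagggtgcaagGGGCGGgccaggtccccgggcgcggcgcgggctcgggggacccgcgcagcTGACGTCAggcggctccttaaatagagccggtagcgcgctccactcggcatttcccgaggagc
Capitals again mark TGACGTCA and GGGCGG, with TGACGTCA from -59 in Fscn1, -90 in Vgf and -63 in Hs3st2. Vgf, an activity-induced secreted peptide precursor, read 12.07, 12.27 and 12.48 in striatum, against 10.20, 11.32 and 11.88 elsewhere, 2.09-fold higher. Hs3st2, a heparan sulfate sulfotransferase, was 2.08-fold higher than the mean of the 4 but 0.29 below frontal cortex.

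Of 24 tested peptide genes, 8 were higher and 13 lower, near the shares over all genes (26.6% and 53.1%), with a median of -0.18. Besides Penk, Tac1, Vgf and Pdyn, Npy (0.30), Pomc (0.19), Cck (0.13) and Sst (0.13) were higher by little. Avp and Pmch, precursors of vasopressin and melanin-concentrating hormone made in the hypothalamus, differed by -1.05 and -1.03. Against amygdala alone they differed by -2.92 and -3.38. Pmch was level with frontal cortex (0.04) and hippocampus (0.03) and not called against accumbens. Avp was at -0.26 against both frontal cortex and hippocampus and at -0.77 against accumbens, and its amygdala arrays ran from 8.59 to 13.27.

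The lower side was led by genes of the meninges, the membranes around the brain. Of 11 listed, 10 were lower, 8 of them at least 2-fold, none higher, and Col1a1 was not called (log2 -0.08), although its second probe set was (-0.30). The median was -1.38. The mean signal of the list ran from 8.20 to 9.01 in striatum. It ran from 10.07 to 10.49 in accumbens, 9.81 to 11.04 in amygdala, 8.37 to 10.67 in frontal cortex and 8.67 to 9.88 in hippocampus. Striatum was wholly below accumbens and amygdala, and overlapped the lowest arrays of frontal cortex and hippocampus.

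Lum, the matrix proteoglycan lumican, read 6.38, 6.91 and 7.38 in striatum, against 7.46, 8.70 and 9.79 elsewhere, 3.51-fold lower (log2 -1.81 ± 0.11, adjusted p = 1.62e-18) and without overlap. Dcn (decorin) read 8.01, 8.51 and 8.76 in striatum, against 8.66, 10.22 and 11.09, and was 3.33-fold lower. Ogn (osteoglycin) read 8.12, 9.83 and 10.30 in striatum, against 9.04, 11.86 and 12.82, and its 3 probe sets gave -2.20 to -1.78. Slc13a4, a sulfate transporter, the growth factor Igf2 and its binding protein Igfbp2 were lower too (log2 -1.59, -1.54 and -1.38). Colec12 (-1.37), a scavenger receptor of vessels and membranes, and the connexin Gjb2 (-1.21) were outside the list. Gjb2 differed little from hippocampus (-0.19).

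**Figure D4:**
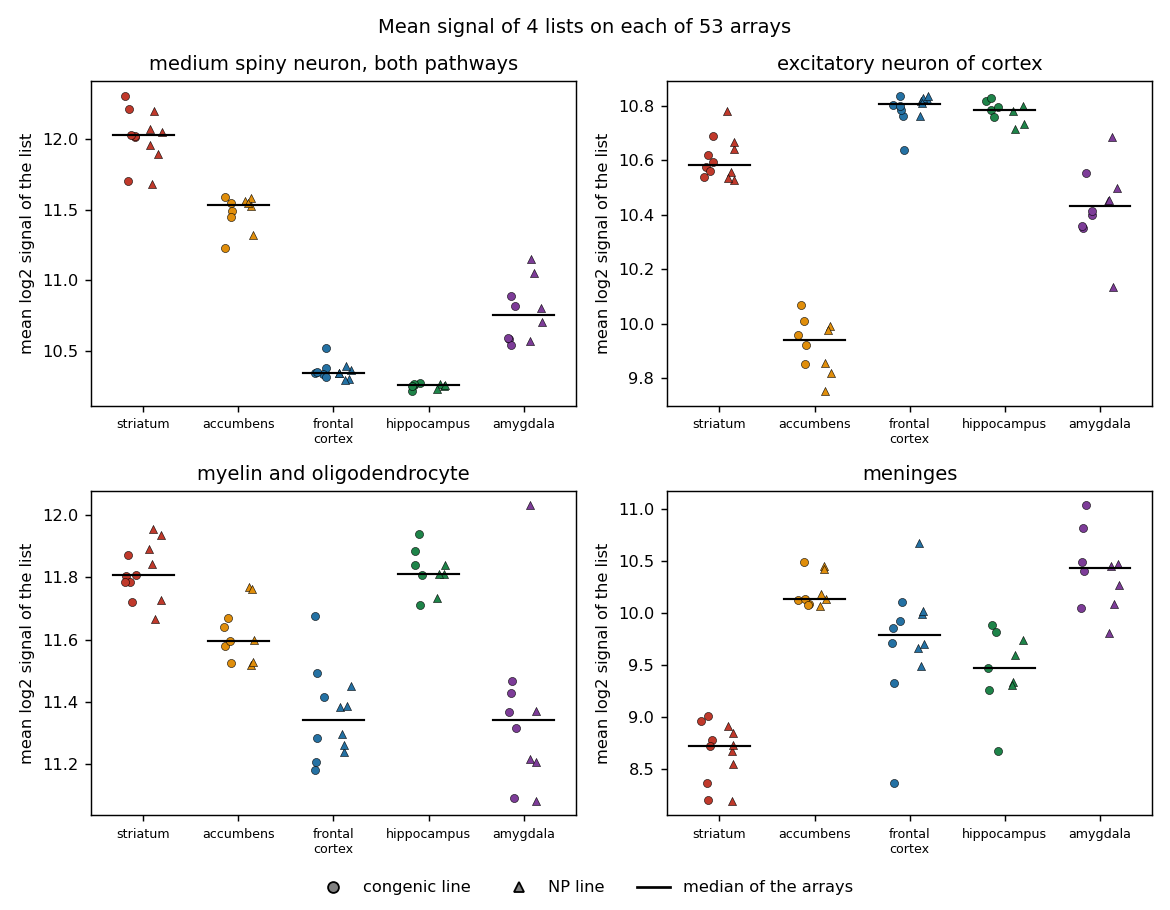
Mean log2 signal of the tested genes of 4 lists (y axis) on each of the 53 arrays, by region (x axis), with medians as lines. Striatum is highest for medium spiny neurons and lowest for meninges, lies between accumbens and frontal cortex for cortical excitatory genes, and is level with hippocampus for myelin.

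Markers of blood and of glia were read against the 53.1% of all genes that were lower. Hbb, beta globin, read 12.75, 13.43 and 13.49 in striatum, against 13.60, 14.19 and 14.85 elsewhere, wholly below the rest. Of 15 astrocyte genes 13 were lower and 2 higher, with a median of -0.16, led by the connexin Gjb6 (-0.81) and Aldh1l1 (-0.62), and 8 of 12 microglia genes were lower (median -0.26). The median over all genes was -0.09. Agt, the angiotensinogen gene of astrocytes, is outside the list and read 9.41, 9.68 and 9.93 in striatum, against 10.36, 11.27 and 12.76 elsewhere, 3.01-fold lower. Of 11 endothelial genes 4 were higher and 5 lower. The part of membranes and blood left on the tissue in these differences was not tested.

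Myelin genes went the other way, with 16 of 20 higher, 1 lower and a median of 0.27. Mag (log2 0.70 ± 0.05) and the factor Sox10 (0.62 ± 0.05) led, and the mean signal of the list (11.66 to 11.96 in striatum) overlapped that of hippocampus (11.71 to 11.94).

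Ttr, transthyretin of the choroid plexus, had the lowest value of all genes against the mean of the 4 (log2 -2.74 ± 0.55, adjusted p = 1.91e-05). It read 7.68, 8.35 and 8.87 in striatum and 7.68 to 15.04 in the other arrays, with medians of 8.17 in accumbens, 8.18 in frontal cortex, 10.84 in amygdala and 14.91 in hippocampus. Against accumbens it was not called (-0.75). Folr1, also of the choroid plexus, was lower too (-0.60), while Aqp1 was higher (0.15).

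Genes of neurons that lie outside the striatum were lower in part. Slc17a6, the transporter VGLUT2 of thalamic and other subcortical neurons, read 8.28, 8.65 and 8.91 in striatum, with medians of 8.59 in frontal cortex, 9.80 in accumbens, 10.22 in hippocampus and 11.10 in amygdala, 2.50-fold below the mean. Of 7 thalamic and pallidal genes 6 were lower, among them Ntng1 (-0.94) and Tcf7l2 (-0.75), and Synpo2 was higher (0.96). Trhr, the receptor of thyrotropin-releasing hormone, was lower (log2 -1.46), by -0.23 against frontal cortex and -2.88 against amygdala. Of 7 hippocampal genes 5 were lower, and Prox1, a dentate gyrus factor, was at -2.37 against hippocampus and 0.04 against frontal cortex. Enzyme genes with every striatum array below the rest included Acss3 and Lcat, besides Adcy8 and Aldh1a1 above. Acss3, a mitochondrial acyl-CoA synthetase, read 7.33, 7.58 and 7.99 in striatum, against 8.36, 8.81 and 9.55. Lcat, which esterifies cholesterol, read 8.74, 9.07 and 9.28, against 9.73, 10.11 and 11.35.

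**Figure D5:**
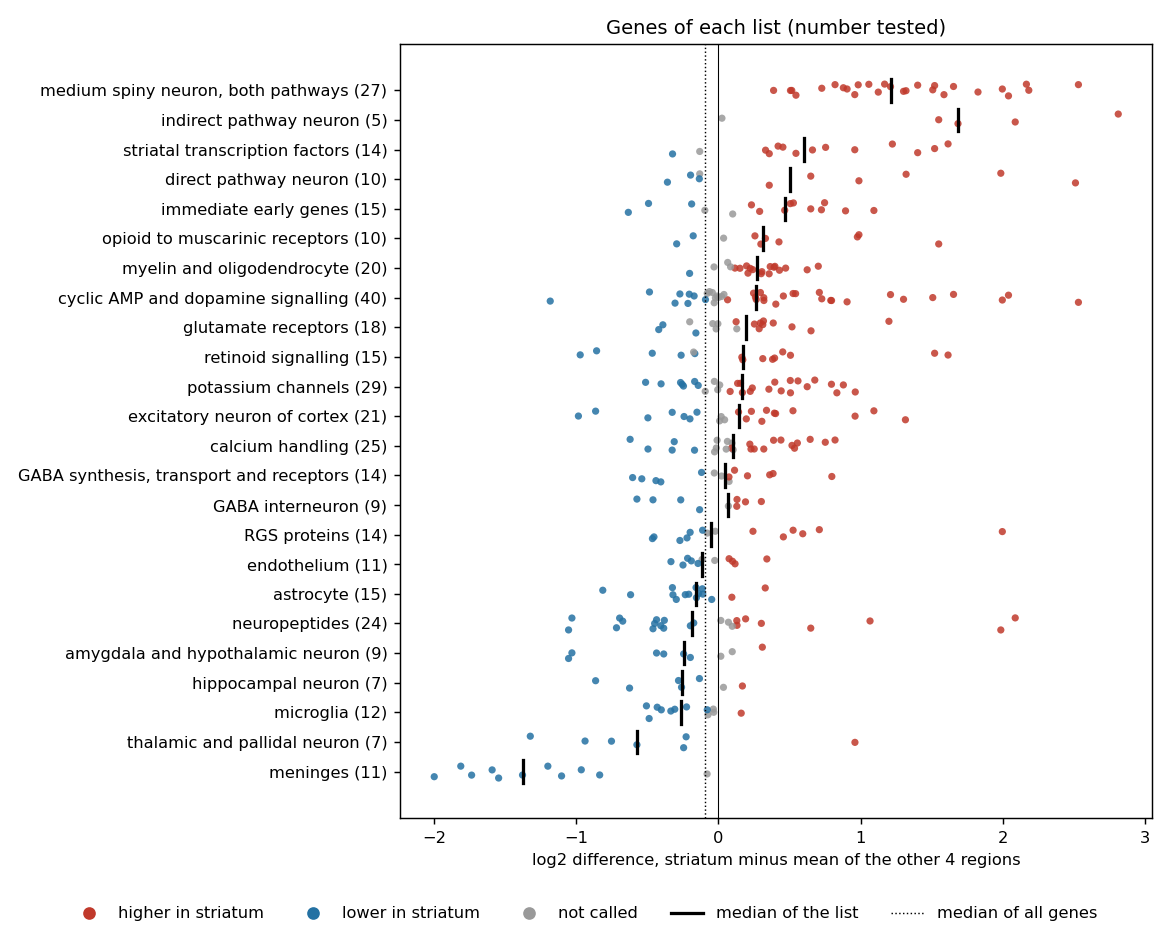
Log2 difference between striatum and the mean of the 4 other regions (x axis) for the tested genes of 24 lists (y axis, number tested in brackets), coloured by call, with list medians as bars. The medium spiny list is wholly above 0 and the meninges list wholly below it, and the median over all genes is -0.09.

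Probe sets without a gene name in the table used were among the largest differences too. Probe set 1387241_at averaged 11.86 ± 0.22 in striatum and 9.23 ± 1.48 in the others (SD, n = 12 and 41; log2 2.68), and 1391295_at 10.58 ± 0.38 and 7.97 ± 0.82 (log2 2.58). Lowest were 1397185_at (-1.83) and 1389039_at (-1.59). Probe set 1397185_at averaged 6.86 ± 0.11 in striatum and 8.60 ± 2.19 in the others (SD), and was not called lower than every region. For 1389039_at, which was, the averages were 7.51 ± 0.25 and 9.03 ± 0.87.

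Fitted in each line alone, the log2 difference of Drd2 was 2.89 ± 0.12 in congenic animals and 2.73 ± 0.14 in NP animals, that of Ppp1r1b 2.60 ± 0.10 and 2.46 ± 0.10, and that of Ogn -1.99 ± 0.32 and -2.01 ± 0.20. At least 2-fold higher were 125 probe sets in congenic and 119 in NP animals, and 102 were the same, 81.6% and 85.7% of each. Lower were 63 and 58, with 51 the same (81% and 87.9%). A test of whether the striatum difference itself depended on the line called 0 of 18625 probe sets in limma (0%), and 1039 had an unadjusted p under 0.05. The smallest p-values belonged to Akap7, an anchor of protein kinase A, Dok3 and Nfil3, each with an adjusted p of 0.349. The striatum difference of Akap7 was -0.34 in congenic and -0.14 in NP animals.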

How the data were processed

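RNA from 5 brain regions of 12 rats was measured on Affymetrix arrays as biotin-labelled cRNA, per the labels' protocols. The authors deposited log2 values for 31099 probe sets on 60 arrays, and their background correction and normalization are not given in the sources used here. Values ran from 4.58 to 16.01. Of 31042 probe sets left without 57 controls, 20826 had 1 gene symbol, 436 several and 9780 none listed. The 18625 with a mean of at least 7.68 (the 40th percentile) were fitted in limma 3.58.1 (R 4.3.3) with region and the animal as a fixed block, since the labels give each animal's number. Deviations of same-animal arrays correlated at 0.0706 on average, against -0.00591 between animals. A gene is its probe set of highest mean signal. Precision is limited by the number of arrays.

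Members and lists were chosen with earlier results of these data known. Named genes were the 15 highest and 15 lowest at least 2-fold, 6 above and 6 below every region, the 4 highest and lowest against accumbens, up to 4 per list and direction, and the 3 of smallest interaction p. Named outside it, after their values were seen, were Adcy5, Adrm1, Atp6v0a1, Col1a1, Dlgap3, Eef1a2, Gad1, Gad2, Gnal, Hs3st2, Neurod6, Nptx1, Pcp4l1, Pfkl, Pomc, Ptprm, Slc5a7 and Zfp521. The fit was tested on simulated data.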

Additional observations from a re-analysis of the deposited data

Results flagged for a closer look

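In 14 of 250 groups of 6 striatum arrays (1 gene in 1 line) the highest or lowest array stood apart from the other 5 by Dixon's test, and chance flags about 1 in 20 groups. Among congenic arrays, animal 4 was lowest for Gabrg1 at a log2 signal of 9.42, for Gnal at 11.29 and for Zfp521 at 8.34, and highest for Nptx1 at 13.13. Animal 1 was highest for Atp6v0a1 at 12.40, and animal 9 lowest for Slc13a4 at 8.23. Dach1 was lowest at 9.43 in animal 4.

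Among NP arrays, animal 6 was lowest for Gjb6 at 10.05 and highest for Nr4a2 at 10.17. Animal 7 was lowest for Ogn at 8.12, where the other NP arrays ran from 9.71 to 10.23. The lowest values also included 13.01 for Hbb in animal 5, 6.75 for Trhr in animal 8, 9.16 for Nr4a3 in animal 11 and 7.83 for Ecel1 in animal 12.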

How the results depend on the processing

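With the filter at the 60th percentile, fewer probe sets were tested, and those at least 2-fold lower numbered 39 against the mean of the 4, 50 against accumbens, 63 against frontal cortex, 175 against hippocampus and 128 against amygdala, and those higher than frontal cortex 117. With no filter 22325 were called at any size, and 51.9% of calls were higher, against 38.1% with it. Quantile normalization gave 142 higher and 61 lower at 2-fold, and 46.5% of its calls at any size were higher. Leaving out the pairing (no replicate block) gave 115 higher, 61 lower and 14422 at any size. Without each animal in turn, the counts ran from 110 to 122 higher, 55 to 65 lower and 14205 to 14449 at any size. Nfil3 turned to -0.017 in congenic animals alone. Against the 3 regions other than accumbens, Fezf2 (-0.17), Cartpt (0.38), Htr2c (0.080) and Nts (0.025) turned. The cause was not tested. Cck, Pvalb, Htr2c and Slc2a1 lost their call without some single animals.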
